A study of Mus musculus with 12 samples.

Results

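The cell cycle and DNA replication genes were examined in CD115-positive cells of mouse spleen and blood. The group was a list of 48 gene symbols that had to reach at least 10 estimated counts in at least 3 libraries. All 48 met this condition, out of 52553 features in the count tables, of which 20135 were tested, and the lowest third-highest count of any member was 365, for Gins2. By role, 15 members act in DNA replication, 5 in entry into S phase or in cell cycle transcription, and 28 in mitosis. The class of 5 is called S phase entry for short, though it includes Mybl2 and Foxm1, whose products also drive mitosis genes. The cells came from male C57BL/6 mice with an intact liver or 24 h after surgical removal of 70% of the liver mass, called LR here, and the spleen was in place in both. There were 4 groups of 3 libraries: intact spleen, spleen after LR, intact blood and blood after LR. Each library pooled the cells of 5 mice, taken from the mononuclear fraction with magnetic beads against CD115, the receptor for colony-stimulating factor 1 on monocytes and macrophages. A bead sort of this kind enriches monocytes and can carry other cells along. LR animals were compared with intact ones, not with sham-operated ones, so operation and loss of liver tissue cannot be told apart.

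A dividing cell copies its DNA in S phase and separates the copies in mitosis. The MCM helicase is loaded on origins by Cdc6 and Cdt1, switched on with Cdc45 and the GINS complex, and followed by polymerases that need deoxynucleotides. E2F factors drive transcription of many replication genes, and B-Myb and FoxM1 that of many mitosis genes later in the cycle. Circulating monocytes divide little, whereas their bone marrow progenitors, red cell precursors, activated lymphocytes and immature T cells divide often.

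The libraries held from 36990033 to 46401368 estimated counts, unassigned entries included. Levels are given in CPM, the usual library-size scaling of counts, with TMM factors. They can be compared between libraries for 1 gene but not between genes of unequal length. The members together made up 0.0636% to 0.618% of a library's counts without the unassigned entries. Haemoglobin genes took 0.0814% to 3.47% of the same counts in spleen and 13.2% to 34.2% in blood. The monocyte marker list of 10 genes, among them Csf1r, which encodes CD115, was above 0 in full in all groups, with a summed level of 3149 to 4456 CPM in spleen and 3617 to 14025 CPM in blood. Genes of B cells, plasma cells, neutrophils, red cells and T cells were also present. In such bulk libraries, fewer cells of a type and less RNA per cell cannot be told apart.

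The promoters of the replication and mitosis members held unequal shares of short motifs that are textbook elements of cell cycle transcription. The motifs searched on both strands were the cell cycle homology region CHR (TTTGAA), the CCAAT box (CCAAT) and 4 spellings of the E2F site (TTTCCCGC, TTTGGCGC, TTTCGCGC and TTTGCCGC), of which TTTCGCGC can overlap TTTGGCGC read on the opposite strand. RefSeq promoters of assembly GRCm38.p6, each of 250 bases before and 50 bases after a start, were found by symbol for 40 of the 48 members, as 43 promoters. The 8 members with no entry were Ccne2, Mcm4, Tpx2, Kif20a, Gins2, Aurkb, Ccna2 and Foxm1. CHR letters stood in 19 of 25 mitosis promoters (76.0%), 2 of 15 replication promoters (13.3%) and 17.9% of all 32851 promoters of that length. E2F letters stood in 1 of 25 mitosis promoters (4.0%), 7 of 15 replication promoters (46.7%) and 2.26% of all. The CCAAT box was in 84.0% of the mitosis and 12 of 15 of the replication promoters against 37.4% of all. None of the 3 promoters of the S phase entry class held any of the motifs. These matches describe letters in the window and are not binding sites.

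The 160 bases before the start are shown for 4 mitosis and 3 replication members to let the classes be compared. Capitals mark CHR matches in the mitosis members, E2F matches in the replication members and matches of both kinds in Cdk1.
Cdk1 (chr10:69352913-69353072, minus strand): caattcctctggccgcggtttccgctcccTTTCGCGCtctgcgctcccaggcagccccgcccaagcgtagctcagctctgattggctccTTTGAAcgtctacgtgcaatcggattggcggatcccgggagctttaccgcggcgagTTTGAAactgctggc
Cdc20 (chr4:118437344-118437503, minus strand): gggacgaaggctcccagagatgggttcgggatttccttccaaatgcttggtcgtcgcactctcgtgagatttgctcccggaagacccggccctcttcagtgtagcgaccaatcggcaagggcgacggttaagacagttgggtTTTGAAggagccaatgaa
Mki67 (chr7:135716380-135716539, minus strand): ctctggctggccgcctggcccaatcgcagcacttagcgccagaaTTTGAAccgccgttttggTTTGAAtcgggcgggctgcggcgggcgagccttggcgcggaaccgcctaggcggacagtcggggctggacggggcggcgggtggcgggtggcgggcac
Top2a (chr11:99024190-99024349, minus strand): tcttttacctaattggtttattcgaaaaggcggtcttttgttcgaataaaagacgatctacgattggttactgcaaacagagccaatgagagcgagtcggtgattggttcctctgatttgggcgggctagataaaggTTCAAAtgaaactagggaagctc
Mcm5 (chr8:75109349-75109508, plus strand): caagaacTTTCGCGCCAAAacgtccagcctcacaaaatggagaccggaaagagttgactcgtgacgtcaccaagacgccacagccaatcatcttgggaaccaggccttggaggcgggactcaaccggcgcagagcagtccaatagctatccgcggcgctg
Mcm6 (chr1:128359706-128359865, minus strand): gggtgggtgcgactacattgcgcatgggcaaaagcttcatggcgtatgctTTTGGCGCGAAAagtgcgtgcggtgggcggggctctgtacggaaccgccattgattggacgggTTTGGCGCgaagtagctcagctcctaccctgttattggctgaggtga
Cdc6 (chr11:98907991-98908150, plus strand): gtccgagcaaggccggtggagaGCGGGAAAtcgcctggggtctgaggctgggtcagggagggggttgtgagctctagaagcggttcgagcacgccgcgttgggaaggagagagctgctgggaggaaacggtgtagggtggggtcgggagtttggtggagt

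The promoter of Cdk1, the kinase that starts mitosis, held 1 E2F match and 2 CHR matches and was the only mitosis promoter of the 25 with E2F letters. Mki67 also held 2 CHR matches in the stretch shown. In Top2a the match reads TTCAAA, since it lies on the opposite strand. In Mcm5 and Mcm6 the long capital run is a pair of E2F spellings that overlap, and Mcm6 has a further match nearer the start. The E2F match of Cdt1 lies after the start and outside the stretch shown for the other genes.

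Library 3 of intact blood stood apart from every other library in these genes and is considered before any comparison. All 48 members were higher there than the mean of libraries 1 and 2 of intact blood, from 1.41-fold for Cdt1 to 31.5-fold for Bub1b, with a median of 13.1-fold. The median was 7.19-fold over the replication members and 15.7-fold over the mitosis members. For 40 of the 48 it was the highest of the 12 libraries, where 21.4% of all features tested were highest in that library. The same library also differed in its marker genes. The summed level of the 6 T-cell genes was 722, 710.4 and 2263 CPM in intact blood, 79.1 to 321 CPM in spleen and 126 to 253 CPM in blood after LR. Lck, a kinase of the T-cell receptor, was at 1202 CPM and Cd4 at 320.2 CPM in library 3, while Cd8a was at 70.5, 65.3 and 12.9 CPM in the libraries of intact blood. Dntt, which adds bases at antigen receptor joints in immature lymphocytes, was at 623 CPM in library 3 and at 7.27 CPM or less in the other 11 libraries. Notch1 was at 1639 CPM there against at most 242 CPM elsewhere, and Myb at 457 CPM against at most 33.4 CPM. Dntt, Notch1 and Myb were chosen after their values were seen. The monocyte list summed to 9388, 6583 and 3617 CPM and the B-cell list to 1774, 2515 and 554 CPM in intact blood, so both were lowest in library 3. The part of these cells in the members' levels was not tested. Each comparison is given with and without this library.

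**Figure D1:**
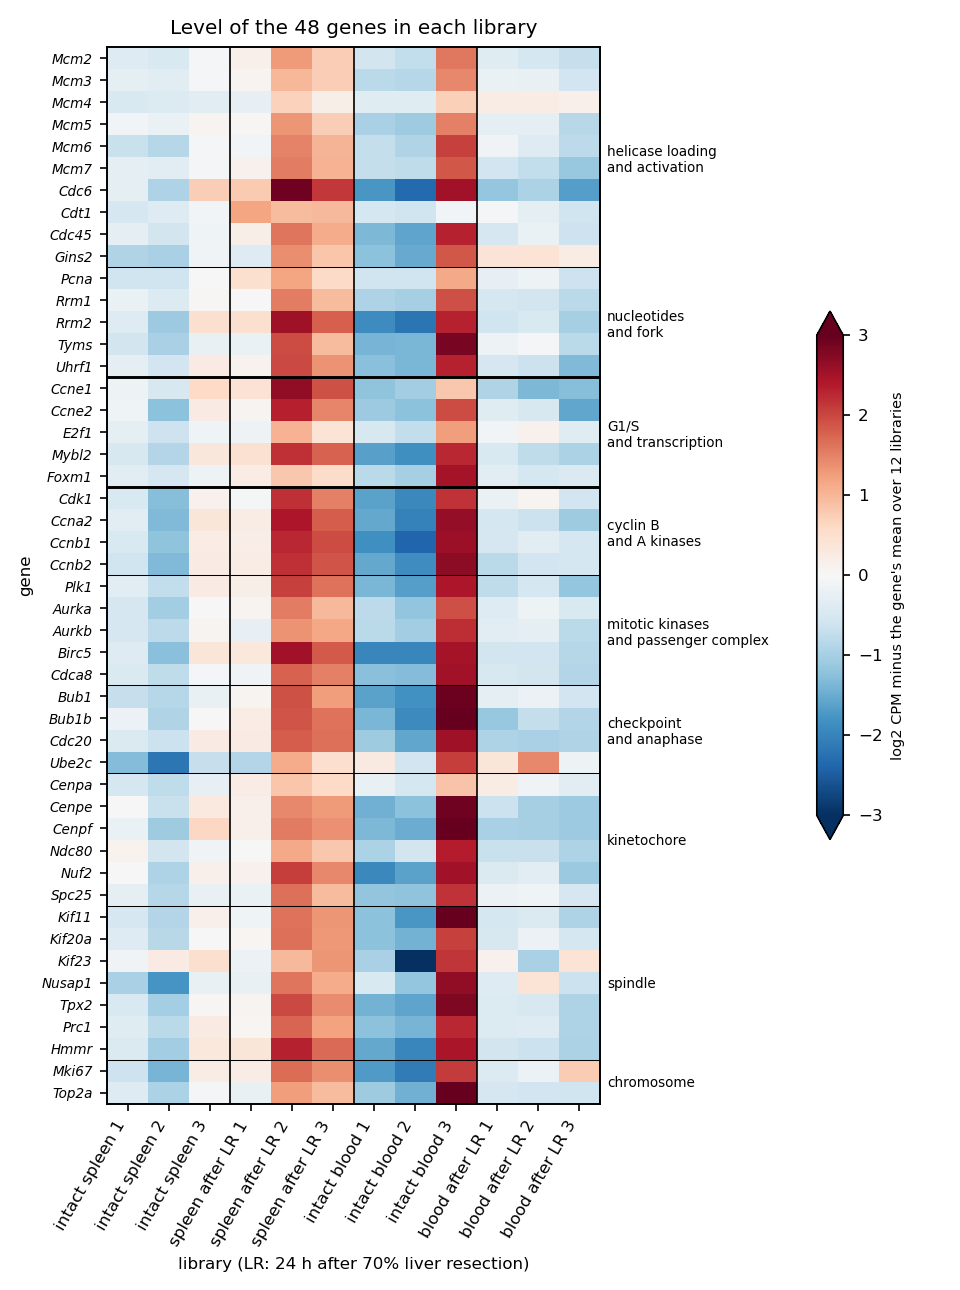
Rows are the 48 genes in order of role, columns the 12 libraries, and colour the log2 CPM minus the gene's mean over the 12 libraries, with colours ending at -3 and 3. Library 3 of intact blood and libraries 2 and 3 of spleen after LR are red for nearly all genes, and libraries 1 and 2 of intact blood are blue for nearly all.

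Among the genes that load and start the replicative helicase, the 6 subunits Mcm2 to Mcm7 were well detected in every library. Mcm2 measured 57, 54.8 and 73.1 CPM in intact spleen, 83.6, 183 and 125 in spleen after LR, 50.7, 44.8 and 225 in intact blood and 58, 51.7 and 46 in blood after LR. Mcm5 measured 66.5, 61.2 and 73.6 CPM in intact spleen, 71.4, 175 and 117 in spleen after LR, 35.4, 33.3 and 200.03 in intact blood and 57.8, 58.4 and 39.2 in blood after LR. For both, library 3 of intact blood was the highest, and every library of spleen after LR was above every library of intact spleen for Mcm2 but not for Mcm5. Mcm3, Mcm6 and Mcm7 had the same order of libraries at the top, with 185, 221 and 259.8 CPM in library 3 of intact blood and 136, 151 and 207 CPM in library 2 of spleen after LR. Mcm4 varied least of the subunits, from 62.4 to 140.3 CPM over the 12 libraries, and in blood after LR it measured 95.9 to 101 CPM.

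The helicase loader Cdc6 varied far more than the subunits it loads. It measured 7.93, 5.05 and 16.1 CPM in intact spleen, 16.8, 73 and 42.2 in spleen after LR, 2.83, 1.88 and 55.6 in intact blood and 4.33, 4.96 and 3.04 in blood after LR. The range ran from 1.88 to 73 CPM, a 38.9-fold span and the widest of the 15 replication members. Cdt1, the partner of Cdc6, behaved otherwise and measured 51.9, 56.4 and 70 CPM in intact spleen, 166, 142 and 145 in spleen after LR, 51.1, 48.3 and 69.9 in intact blood and 70.2, 61.4 and 48.7 in blood after LR. All 3 libraries of spleen after LR lay above the other 9 libraries, and library 3 of intact blood lay with the rest. Cdt1 had the narrowest span but for Mcm4 in this class. Cdc45, which completes the active helicase, was at 2.57 to 24 CPM in 11 libraries and 39.1 CPM in library 3 of intact blood. Gins2, a GINS subunit, was at 6.53, 6.69 and 5.83 CPM in blood after LR and 2.09, 1.72 and 18.4 CPM in intact blood.

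Of the genes for deoxynucleotides and the fork, Pcna, the clamp that holds polymerases on DNA, measured 110.1, 110.1 and 168 CPM in intact spleen, 234, 378 and 248 in spleen after LR, 111, 109.7 and 368 in intact blood and 141, 149 and 107 in blood after LR. Every library of spleen after LR was above every library of intact spleen. Rrm2, the regulated subunit of ribonucleotide reductase, measured 19, 11.6 and 34.8 CPM in intact spleen, 34.8, 144 and 85.8 in spleen after LR, 6.69, 5.40 and 122 in intact blood and 16.3, 17.9 and 12.3 in blood after LR. Libraries 1 and 2 of intact blood were the lowest, and library 1 of spleen after LR was level with library 3 of intact spleen. Rrm1, the large subunit, had a smaller span, from 33.6 to 258 CPM. Tyms, which makes thymidylate, was at 3.44 to 35.6 CPM in 11 libraries and 66.3 CPM in library 3 of intact blood. Uhrf1, which carries DNA methylation through replication, was at 10.8 to 111 CPM in the 11 and 138 CPM in that library.

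The 5 genes of S phase entry and cell cycle transcription included the cyclin E genes, whose products activate Cdk2 at the start of S phase. Ccne1 measured 8.99, 7.14 and 15 CPM in intact spleen, 13.6, 63.7 and 37.6 in spleen after LR, 4.29, 4.86 and 17.6 in intact blood and 5.34, 3.87 and 4.08 in blood after LR. Its highest values were in libraries 2 and 3 of spleen after LR, and library 3 of intact blood was at 17.6 CPM, below both. Ccne2 measured 4.44, 2.07 and 5.85 CPM in intact spleen, 5.21, 24.7 and 13.6 in spleen after LR, 2.28, 2.06 and 19.1 in intact blood and 3.78, 3.50 and 1.63 in blood after LR. The 3 libraries of blood after LR lay within the range of the 3 of intact blood but for library 3, which was the lowest of all 12. E2f1, an activator of replication genes, measured 10.7, 8.35 and 11.7 CPM in intact spleen, 11.6, 26.7 and 17.2 in spleen after LR, 9.14, 7.66 and 30.5 in intact blood and 12.2, 14.1 and 9.91 in blood after LR. It varied less than the cyclins, with library 3 of intact blood highest. Mybl2, which encodes B-Myb, reached 56.8 CPM in library 3 of intact blood and 54 CPM in library 2 of spleen after LR. Foxm1 reached 105 CPM in library 3 of intact blood and was at 9.33 to 32.5 CPM in the other 11.

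The cyclin-dependent kinase of mitosis and its cyclins had alike orders of libraries. Cdk1 measured 6.94, 3.94 and 10.6 CPM in intact spleen, 9.23, 43.9 and 27.6 in spleen after LR, 3.14, 2.49 and 43.4 in intact blood and 8.36, 10.1 and 6.47 in blood after LR. Ccna2, the cyclin of S phase and early mitosis, measured 21, 10.7 and 34.6 CPM in intact spleen, 31.4, 144 and 93.6 in spleen after LR, 9.17, 6.53 and 165 in intact blood and 18.5, 17.1 and 12.8 in blood after LR. Ccnb1, a cyclin B, measured 6.46, 3.78 and 10.3 CPM in intact spleen, 10.2, 42.8 and 34.8 in spleen after LR, 2.45, 1.67 and 53 in intact blood and 6.22, 7.03 and 6.19 in blood after LR. In all 3, library 2 of intact blood was the lowest, and library 1 of spleen after LR lay within the range of intact spleen. Ccnb2, the other cyclin B, reached 86.7 CPM in library 3 of intact blood and 62.4 CPM in library 2 of spleen after LR.

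The mitotic kinases and the chromosomal passenger complex, which corrects attachments to the spindle, had a similar order. Plk1, a kinase of many mitotic steps, measured 6.97, 5.24 and 10.3 CPM in intact spleen, 9.88, 36.2 and 27 in spleen after LR, 3.33, 2.75 and 46.9 in intact blood and 5.13, 6.05 and 3.88 in blood after LR. Aurkb, the kinase of the passenger complex, measured 8.94, 7.33 and 13.6 CPM in intact spleen, 10.8, 32.4 and 28.6 in spleen after LR, 7.21, 6.14 and 59.2 in intact blood and 10.1, 10.5 and 7.26 in blood after LR. For both, library 3 of intact blood was highest and library 1 of spleen after LR lay within intact spleen. Aurka, a kinase of the spindle poles, reached 43 CPM in library 3 of intact blood. Birc5 and Cdca8, the passenger proteins survivin and borealin, reached 72 and 79.9 CPM there. Birc5 was slightly higher in library 2 of spleen after LR, at 73.2 CPM.

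In the spindle checkpoint and anaphase group, Bub1b and Bub1, which hold anaphase until chromosomes are attached, were at 129 and 51.1 CPM in library 3 of intact blood and at 3.34 to 46.7 and 1.85 to 24.9 CPM in the other 11. Cdc20, which activates the anaphase ligase, was at 75.4 CPM in that library and 4.32 to 45.3 CPM elsewhere. Ube2c, the ubiquitin-conjugating enzyme of that ligase, measured 9.60, 5.28 and 14.6 CPM in intact spleen, 12.9, 51.5 and 33.7 in spleen after LR, 28.7, 16.1 and 100.05 in intact blood and 30.6, 64.3 and 21.6 in blood after LR. It was the only member for which all libraries of intact blood were above all of intact spleen, where this held for 13.6% of all features. Among kinetochore genes, Cenpa, the histone that marks the centromere, had a narrow range of 18.6 to 56.7 CPM. Cenpe and Cenpf, large proteins of the outer kinetochore, were at 70.7 and 85.2 CPM in library 3 of intact blood and at most 25.5 and 22.8 CPM elsewhere. Ndc80, Nuf2 and Spc25, which form the complex that grips microtubules, were at 30.9, 31.4 and 22 CPM there and at most 13.3, 22.7 and 15.3 CPM elsewhere.

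Of the spindle genes, the motor Kif11, which pushes the poles apart, was at 152 CPM in library 3 of intact blood and 4.68 to 48.5 CPM in the other 11. Kif20a and Prc1, which act in the midzone, reached 58 and 62.3 CPM in that library, and the microtubule proteins Tpx2, Nusap1 and Hmmr reached 95.9, 97.5 and 36.9 CPM. Kif23, a midzone motor, was uneven between replicates and measured 7.09, 9.04 and 10.7 CPM in intact spleen, 6.73, 14.9 and 19.1 in spleen after LR, 3.83, 0.617 and 33.9 in intact blood and 8.33, 3.84 and 10.1 in blood after LR. Its 0.617 CPM in library 2 of intact blood was the lowest of its 12 values. The chromosome gene Mki67, which encodes the proliferation marker Ki67, measured 91, 52.9 and 161 CPM in intact spleen, 163, 446 and 364 in spleen after LR, 42.8, 32.5 and 598 in intact blood and 105, 124 and 234 in blood after LR. Both lower libraries of intact blood lay below all 3 of blood after LR, and the third lay above them. Top2a, the topoisomerase that untangles chromosomes, measured 41.9, 28.5 and 54 CPM in intact spleen, 47.2, 131 and 106 in spleen after LR, 26.4, 20.4 and 656 in intact blood and 39.1, 36.8 and 36.7 in blood after LR. Library 3 of intact blood stood far above the other 11, and blood after LR was within the range of intact spleen.

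**Figure D2:**
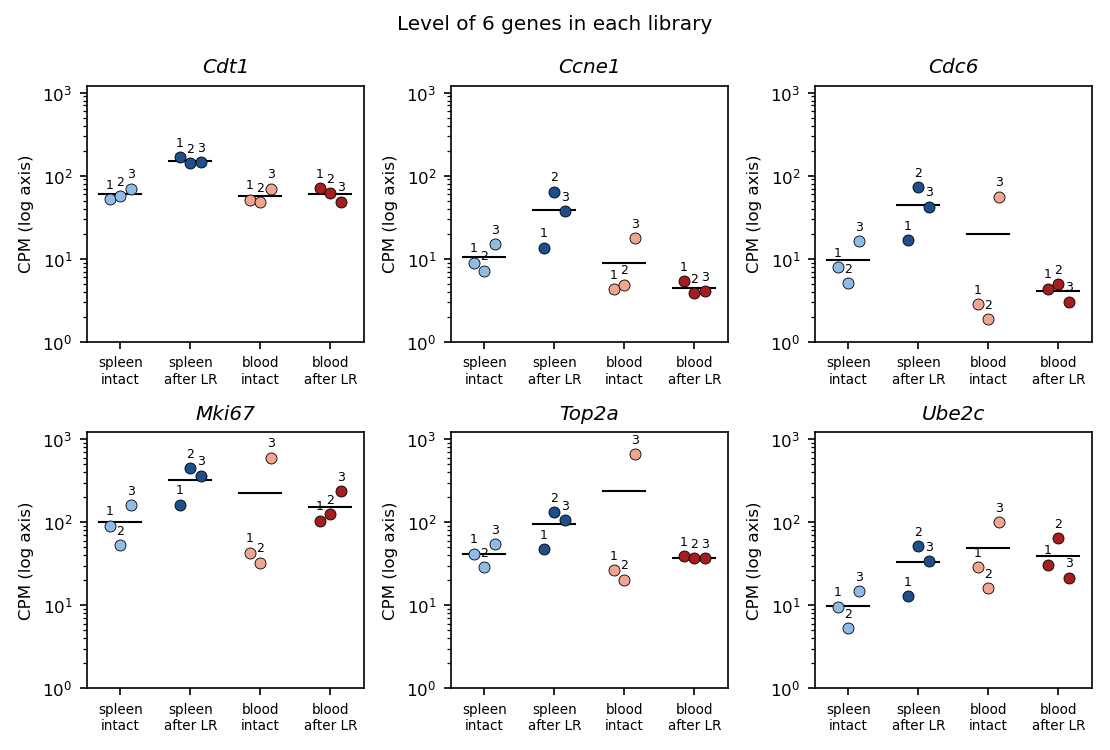
Points are the 3 libraries of each group, numbered as replicates, on a log axis of CPM, and lines are group means. Cdt1 and Ccne1 are highest in spleen after LR, whereas Mki67, Top2a and Ube2c are highest in library 3 of intact blood, which pulls that group's mean above its other libraries.

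When levels were divided by the length of the longest coding transcript (GENCODE release for GRCm38), Pcna was the highest member in spleen after LR at 189 CPM per kb, followed by Cdt1 at 69.0 and Mcm7 at 48.9 CPM per kb. Cenpf was the lowest at 1.54 CPM per kb. With library 3 left out of intact blood, Pcna was at 85.3 CPM per kb in intact spleen, 72.7 in intact blood and 87.3 in blood after LR.

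The first comparison asked whether these genes differed in the CD115-positive cells of spleen 24 h after LR. The log2 fold change was above 0 for all 48 members, and its median was 1.48 against 0.05 over all features tested, but only Cdt1 passed the test. Cdt1 rose in spleen after LR, from 51.9 to 70.0 CPM in intact spleen to 142 to 166 CPM (log2 fold change 1.35, SE 0.19, edgeR adjusted p = 0.0234). A feature was called when the edgeR quasi-likelihood test, adjusted by Benjamini-Hochberg over all 20135 features, gave an adjusted p under 0.05 and the log2 fold change was beyond 1. In this comparison 0.78% of all features were called higher and 0.596% lower, and 1 of 48 members was. The 5 members with an unadjusted p under 0.05, all higher, included Cdt1, where 2308 of 20135 features were higher at that limit. The median log2 fold change was 1.35 over replication members, 1.81 over S phase entry members and 1.63 over mitosis members, and the range over all 48 was 0.60 to 2.18.

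The 3 libraries after LR were far apart from each other. Library 1 of spleen after LR lay near intact spleen, with a median ratio to the intact mean of 1.31 and a range from 0.753 for Kif23 to 2.79 for Cdt1. Library 2 had a median ratio of 4.11, from 1.67 for Kif23 to 7.52 for Cdc6, and library 3 one of 2.86, from 1.5 for Mcm4 to 5.09 for Ccnb1. For 21 of 48 members every library after LR was above every intact one, where this held for 17.4% of all features. The 21 were 9 replication, 2 S phase entry and 10 mitosis members. Cdc6 had the highest fold change (log2 fold change 2.18, SE 1.12, edgeR adjusted p = 0.302). Among other members named by rule, Rrm2 had 2.01, Pcna 1.15, Mcm2 1.08, Mcm5 0.85, Ccne1 1.88, Ccne2 1.81 and E2f1 0.85 on the log2 scale. Cdk1 had 1.91, Ccna2 2.02, Ccnb1 2.10, Plk1 1.69, Aurkb 1.27, Mki67 1.67 and Top2a 1.19, with edgeR adjusted p from 0.139 to 0.571 for these 14.

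All 12 libraries share 1 estimate of spread, and the number of calls in spleen moved with a blood library. Without library 3 of intact blood, 23 of 48 members were called higher, 8 in replication, 2 in S phase entry and 13 in mitosis, where 2.97% of 21062 features were called higher. The fold changes themselves stayed within the same range of 0.60 to 2.18. The members called then included Cdt1 (log2 fold change 1.34, SE 0.16, edgeR adjusted p = 0.00764), Cdc6 (log2 fold change 2.18, SE 0.57, edgeR adjusted p = 0.0466), Ccnb1 (log2 fold change 2.10, SE 0.52, edgeR adjusted p = 0.0419) and Bub1 (log2 fold change 1.83, SE 0.41, edgeR adjusted p = 0.0308). With the 6 spleen libraries alone, and so no blood library in the fit, Cdt1 was again the only member called (log2 fold change 1.34, edgeR adjusted p = 0.0338), where 0.614% of 18393 features were called higher. Without library 1 or 2 of intact spleen, or without library 3 of spleen after LR, no member was called. Of all features, only 1 of 21146, 3 of 21150 and 13 of 21042 were then called higher. DESeq2 called 3 higher, Cdt1, Ccne1 and Cenpa, where it called 4.75% of features higher.

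Marker genes of other cells differed between the same libraries. The 11 erythroid genes summed to 826, 605 and 2895 CPM in intact spleen and 6157, 27064 and 7854 CPM after LR, with none at 0. The 6 of them other than haemoglobin, Alas2 and Slc4a1, namely Epor, Klf1, Gata1, Ermap, Rhag and Rhd, summed to 52.9, 32.1 and 139 CPM in intact spleen and 142, 683 and 386 CPM after LR. Library 2 after LR was highest in these sums and in most members, and library 1 was lowest of the 3 in both. The 8 neutrophil genes summed to 2002, 1947 and 1154 CPM and 5136, 4591 and 13563 CPM, and the 11 neutrophil precursor genes to 552, 295 and 280.1 CPM and 1255, 1469.9 and 3494 CPM. Of the neutrophil list, Csf3r and Cxcr2 overlapped between the groups. Csf3r was at 532, 613 and 476 CPM in intact spleen and 455, 534 and 681 CPM after LR, and Cxcr2 at 141, 192 and 67.8 CPM and 111, 90.6 and 254 CPM. The 7 plasma cell genes summed to 2326 to 3358 CPM in intact spleen and 4563 to 5259 CPM after LR, and the 7 B-cell genes to 4842 to 5467 CPM and 1247 to 4230 CPM. The 6 stem and progenitor genes stayed between 59.3 and 74.4 CPM in spleen, and the 5 germinal centre genes between 11.9 and 23.2 CPM. The 7 genes of red pulp macrophages, the splenic macrophages that take up old red cells, summed to 1222, 1835 and 1793 CPM in intact spleen and 3049, 4603 and 2321 CPM after LR. Their sums did not overlap and were highest in library 2 after LR, as most members were, but lowest of the 3 in library 3. Of this list, Spic, Hmox1 and Adgre1 were higher after LR without overlap. In library 3 after LR, Vcam1 at 377 CPM, Slc40a1 at 127 CPM and Cd5l at 35.0 CPM were below every library of intact spleen. Itgad, at 183 CPM there, was within the range of intact spleen. The T-cell genes summed to 174 to 321 CPM in intact spleen and 79.1 to 109.6 CPM after LR and the 6 NK-cell genes to 82.0 to 158 CPM and 12.7 to 50.2 CPM, so both were lower after LR without overlap. The summed 7 genes of conventional dendritic cells overlapped, at 470 to 674 CPM and 627 to 1579 CPM, but single genes differed in direction. Ccr7 was higher after LR, at 531 to 1403 CPM against 261 to 468 CPM. Clec9a, Cd209a and Zbtb46 were lower after LR without overlap, with Clec9a at 0.467 to 7.38 CPM against 10.3 to 20.4 CPM. Xcr1, Itgax and Flt3 overlapped. The part of these cells in the members' levels was not tested.

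**Figure D3:**
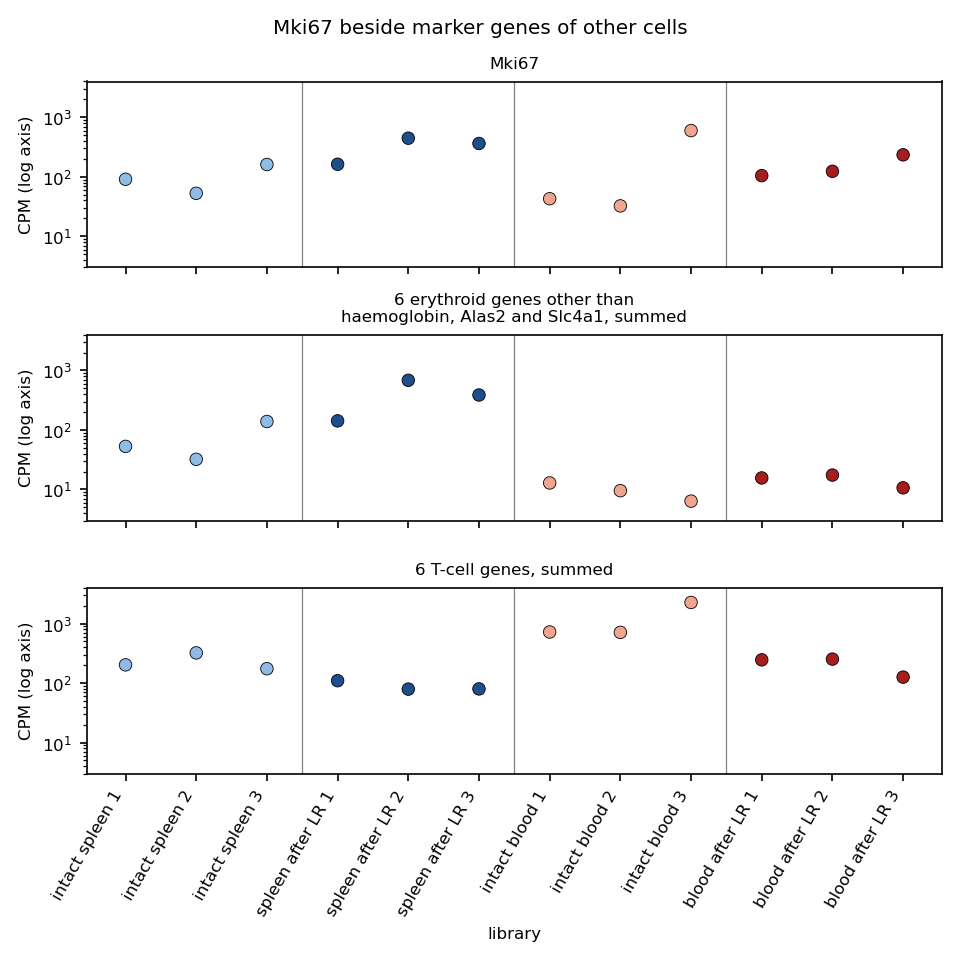
Mki67, the sum of 6 erythroid genes and the sum of 6 T-cell genes are plotted by library on log axes of CPM. In spleen the erythroid sum and Mki67 are both highest in library 2 after LR, and in library 3 of intact blood Mki67 and the T-cell sum are the highest of the 12 while the erythroid sum is the lowest.

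In blood, the comparison of LR with intact animals turned on library 3 of intact blood. With all libraries, 46 of 48 members had a negative log2 fold change, with a median of -1.47 against -0.10 over all features. None was called, where 7.8% of all features were called higher and 6.11% lower. The lowest edgeR adjusted p was 0.0969, for Cenpf. An unadjusted p under 0.05 was found for 7 members, all lower, where 3831 of 20135 features were lower at that limit. DESeq2 called 3 lower, Bub1b, Ndc80 and Top2a, where it called 8.03% of features lower. Without that library the median was 0.69, and 45 of 48 values were above 0. Then 2 members rose, where 6.8% of features were called higher. These were Mki67 (log2 fold change 2.03, SE 0.59, edgeR adjusted p = 0.0406) and Gins2 (log2 fold change 1.73, SE 0.50, edgeR adjusted p = 0.0375). Mki67 was at 42.8 and 32.5 CPM in the 2 remaining intact libraries and at 105, 124 and 234 CPM after LR. With all libraries its interval was wide (log2 fold change -0.54, SE 0.97, edgeR adjusted p = 0.732, 95% interval -2.44 to 1.36).

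Leaving library 3 aside, 36 of 48 members were higher in every library of blood after LR than in both libraries of intact blood, where this held for 27.9% of all features. The ratio of the mean after LR to the mean of intact libraries 1 and 2 had a median of 1.63, from 0.965 for Mcm7 to 4.10 for Mki67. By class the median was 1.44 over replication, 1.38 over S phase entry and 1.77 over mitosis members. For members named by rule the log2 fold change with all libraries and without library 3 was -1.04 and 0.11 for Mcm2, -0.79 and 0.59 for Mcm5, and -0.57 and 0.26 for Pcna. It was -2.29 and 0.80 for Cdc6, -1.53 and 1.35 for Rrm2, -0.98 and 1.55 for Cdk1, and -2.64 and 0.68 for Top2a. The gap was smallest for Cdt1, with 0.09 and 0.27, and Ccne1 had -1.01 and -0.05. The 8 neutrophil genes summed to 384, 571 and 126 CPM in intact blood and 3771, 5046 and 19982 CPM after LR, and the 11 neutrophil precursor genes to 117, 65.8 and 45.5 CPM and 1057, 1174 and 3232 CPM. The 7 red pulp macrophage genes summed to 226, 134 and 491 CPM in intact blood and 1909.9, 2542 and 2104 CPM after LR. Within this list Adgre1 was at 793 to 1140 CPM after LR, Hmox1 at 565 to 801 CPM and Cd5l at 431 to 645 CPM. Slc40a1, Spic and Vcam1 were at most 67.7, 6.42 and 4.78 CPM after LR. Itgad was near the detection floor in blood, at 0.141 to 0.244 CPM after LR and 0.328 to 0.540 CPM in intact blood. In these libraries 3 counts equal 0.0655 to 0.102 CPM, so its lower values after LR rest on few counts. The part of these cells in these values was not tested.

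**Figure D4:**
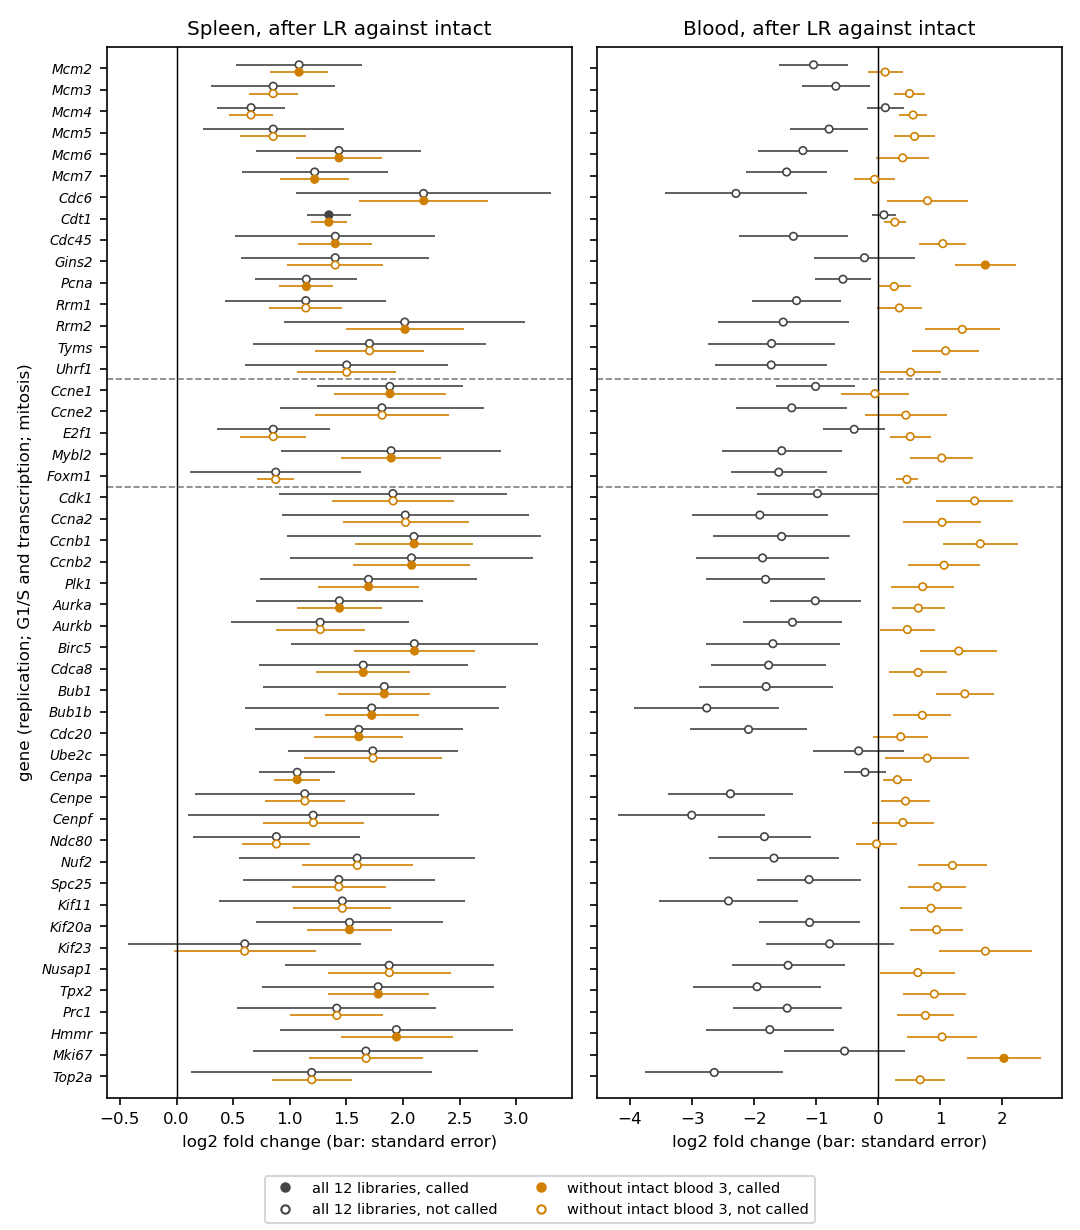
Log2 fold changes after LR with their standard errors for the 48 genes, in spleen at left and in blood at right, with all 12 libraries in grey and without library 3 of intact blood in orange, filled where called. In spleen the values coincide and the errors shrink, with 1 and 23 genes called, whereas in blood most values cross 0, with 0 and 2 called.

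Blood and spleen of intact animals gave no member past the test, where 3.86% of all features were called higher in blood and 3.49% lower. With all libraries the log2 fold change was above 0 for 46 of 48 members, and the median was 1.23. There were 3 unadjusted p-values under 0.05, all higher, where 2354 of 20135 features were higher at that limit. Without library 3 of intact blood 44 were negative, with a median of -0.91. There were then 17 unadjusted p-values under 0.05, all lower, where 2509 of 21062 features were lower at that limit. Still none was called by edgeR, where 4.75% of features were called higher and 2.34% lower. This comparison and that of LR in blood share the intact blood libraries, so the shift of sign in them is not independent. Ube2c kept its direction, higher in blood, at 2.29 with and 1.29 without that library, with edgeR adjusted p of 0.0919 and 0.256. DESeq2 called 3 members higher in blood, Ube2c, Nusap1 and Top2a, where it called 6.87% of features higher.

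After LR, blood was below spleen for 47 of 48 members, with a median log2 fold change of -1.59 against -0.14 over all features. In this comparison 6.87% of all features were called lower and 6.28% higher, and 2 members were called, both lower. Cdt1 was lower in blood (log2 fold change -1.33, SE 0.19, edgeR adjusted p = 0.00221), at 70.2, 61.4 and 48.7 CPM against 166, 142 and 145 CPM in spleen. Ccne1 was also lower (log2 fold change -3.11, SE 0.68, edgeR adjusted p = 0.0128), at 5.34, 3.87 and 4.08 CPM against 13.6, 63.7 and 37.6 CPM. The libraries did not overlap for 38 of 48 members, all lower in blood, where this held for 25.1% of features. Without library 3 of intact blood, which is in neither group, 35 members were called lower against 8.6% of features, and with the 6 libraries compared alone 26 were called against 7.53%. Of the 35, 11 were replication, 3 S phase entry and 21 mitosis members. Without library 2 of spleen after LR, or library 2 or 3 of blood after LR, Cdt1 alone was called. Of all features, 601 of 21077, 647 of 21192 and 635 of 21094 were then called lower. Without library 2 of intact blood Cdc6 was called as well as Cdt1 and Ccne1, where 1092 of 21145 features were called lower. DESeq2 called 8 lower, where it called 8.42% of features lower.

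The test of a difference in the LR effect between blood and spleen called no member, where 0.283% of all features were called in either direction. All 48 differences were negative, with a median of -2.89 on the log2 scale. Of these, 36 had an unadjusted p under 0.05, where 1925 of 20135 features were lower at that limit. The lowest edgeR adjusted p was 0.0869, for Cdt1, whose difference was -1.25 (SE 0.27). Without library 3 of intact blood the median was -0.80, 45 of 48 were negative, and none was called, against 0.38% of features. An unadjusted p under 0.05 was found for 6, all lower, where 1814 of 21062 features were lower at that limit. The difference for Cdt1 was then -1.08 (SE 0.23, edgeR adjusted p = 0.0819). DESeq2 called 6 members, Mcm7, Cdc6, Cdt1, Ccne1, Bub1b and Cdc20, all lower, where it called 2.51% of features lower.

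The replication members were set against the mitosis members library by library. The index of a class was the mean over its genes of log2 CPM minus each gene's mean over the 12 libraries, and it is given as a description without a test. In intact spleen the replication index was -0.41, -0.60 and 0.04 and the mitosis index -0.42, -0.98 and 0.10. In spleen after LR they were 0.18, 1.56 and 1.01 for replication and 0.04, 1.73 and 1.34 for mitosis. Both classes had the same order of libraries in spleen, except that library 3 of intact spleen and library 1 after LR changed places. In intact blood the replication index was -1.01, -1.15 and 1.75 and the mitosis index -1.23, -1.57 and 2.51. In blood after LR it was -0.31, -0.32 and -0.74 for replication and -0.46, -0.38 and -0.67 for mitosis. Library 3 of intact blood had the largest gap between the classes, with a replication minus mitosis value of -0.75.

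In the other libraries replication minus mitosis lay between -0.33, in library 3 of spleen after LR, and 0.42, in library 2 of intact blood. Over all 12 libraries the mitosis members had the wider range. Their median ratio of highest to lowest library was 21.0, against 7.70 for replication members and 15.1 for S phase entry members. Library 3 of intact blood was the highest library for 40 of the 48 members, so these spans rest largely on it. Spans without that library are not given. Of the genes whose promoter sequence was shown, Cdk1, Cdc20, Mki67 and Top2a, with CHR letters, had spans of 17.6, 17.5, 18.4 and 32.2-fold. Mcm5, Mcm6 and Cdc6, with E2F letters, had spans of 6.01, 7.70 and 38.9-fold. Of these genes only Cdk1 and Cdc6 were not highest in library 3 of intact blood, and a link of the letters to the spans was not tested. With 9 narrower replication genes (Mcm, Rrm and Cdc6) against 6 mitosis genes (Plk1, Aurk and Cenp), the value was -0.53 in library 3 of intact blood and lay between -0.13 and 0.29 elsewhere. The libraries with high levels of nearly all members, library 3 of intact blood and libraries 2 and 3 of spleen after LR, were not alike in the proportions of the members. Relative to library 2 of spleen after LR, library 3 of intact blood had log2 ratios from -1.86 for Ccne1 and -1.02 for Cdt1 to 1.69 for Foxm1 and 2.32 for Top2a, with a median of 0.43 and 40 of 48 above 0.

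**Figure D5:**
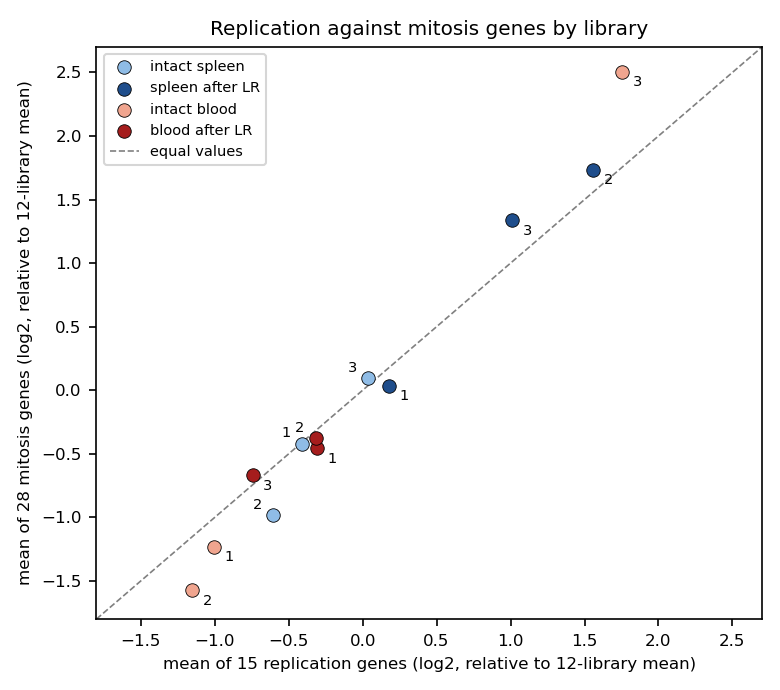
Each point is a library, with the mean of the 15 replication genes on the horizontal and of the 28 mitosis genes on the vertical axis, both on a log2 scale relative to the mean over 12 libraries, and the dashed line marks equal values. The points follow the line, and library 3 of intact blood lies farthest above it at 1.75 and 2.51.

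Other cell cycle genes were described from 3 lists with no gene in common with the 48. Of 31 genes of G1 phase and its inhibitors, LR in blood gave 5 higher and 3 lower, or 16.1% and 9.68%, where 7.8% and 6.11% of all features were. The 5 were Gadd45a (log2 fold change 3.15, edgeR adjusted p = 0.00097) and Mdm2 (log2 fold change 1.86, edgeR adjusted p = 0.00168), both targets of p53, with Cdkn2d at 1.28, Ccng2 at 1.13 and Cdkn1a at 1.74 on the log2 scale. Gadd45a measured 32.3, 37.9 and 36.9 CPM in intact spleen, 95.5, 99.8 and 176 in spleen after LR, 22.6, 21.9 and 32.4 in intact blood and 128, 247 and 309.6 in blood after LR. In both tissues its libraries after LR were all above the intact ones, and it was also called in spleen (log2 fold change 1.79, edgeR adjusted p = 0.0373). Cdkn1a, the p21 inhibitor of cyclin-dependent kinases, measured 111, 83.4 and 34 CPM in intact blood and 222, 306 and 235 in blood after LR, and its call was lost without library 3 of intact blood. The 3 lower in blood were Rbl1 at -1.32, Ccnd2 at -1.26 and Trp53 at -1.24, of which Ccnd2, a cyclin D, was called without that library as well. The counts were then 6 higher and 1 lower, with Cdkn2a at 2.06 and Cdkn2b at 1.39 among the higher, where 6.8% of features were called higher and 5.36% lower.

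Of 44 other replication genes, LR in spleen gave 1 higher, the flap nuclease Fen1 (log2 fold change 1.58, edgeR adjusted p = 0.042), at 15.5, 12.7 and 16.4 CPM in intact spleen and 28.8, 52.3 and 52.3 in spleen after LR. Without library 3 of intact blood 10 of the 44 were called higher in spleen, or 22.7% against 2.97% of features. LR in blood gave 3 of the 44 lower, or 6.82% against 6.11% of all features, a share near that of all features. They were Cdc7, a kinase that fires origins, at -1.97, Dnmt1 at -1.94 and Pold1 at -1.13, and of these Cdc7 was called without the library as well, at -1.13. In that fit the origin recognition gene Orc1 was called higher at 2.10, and the median of the 44 was 0.11, against -0.74 with all libraries. Of 46 other mitosis genes, LR in blood gave 2 lower, or 4.35% against 6.11% of all features, the condensin gene Smc4 (log2 fold change -1.81, edgeR adjusted p = 0.004) and Racgap1 at -1.22, and LR in spleen gave none, or 15 higher (32.6%) without library 3 of intact blood. Smc4 measured 167, 150.1 and 355 CPM in intact blood and 67, 68.6 and 55.8 in blood after LR, with no overlap, and was called without library 3 as well (log2 fold change -1.32, edgeR adjusted p = 0.00221). In that fit Smc4 was the 1 lower call, and 4 of the 46 were called higher, Ccnf at 2.13, Ckap2l at 1.97, Espl1 at 1.59 and Nek2 at 1.31, or 8.70% against 6.8% of features. The median of the 46 was -1.53 with all libraries and 0.71 without library 3. In the latter fit 14 had an unadjusted p under 0.05 in the higher direction against 2 in the lower. Of 21062 features, 3787 were higher and 3720 lower at that limit.

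Between tissues, the inhibitors Cdkn2a and Cdkn2b, which hold cells in G1, were higher in blood both in intact animals (log2 fold changes 2.74 and 2.28) and after LR (3.29 and 2.96), and these calls held without library 3 of intact blood. The values in intact animals were then smaller, at 1.57 and 1.73, and those after LR were 3.39 and 3.06. Cdkn2a was nevertheless low, at 0.673, 0.564 and 0.447 CPM in intact spleen, 0.561, 0.589 and 0.836 in spleen after LR, 1.29, 1.82 and 8.17 in intact blood and 7.54, 7.88 and 4.11 in blood after LR. In intact animals Dbf4, the partner of Cdc7, was higher in blood at 1.25 and Racgap1 at 1.56. After LR, blood was also higher for Ccnd1 at 2.10 and Mdm2 at 1.38. It was lower for 6 of the 44 other replication genes, among them Orc5 at -1.12, Pola2 at -1.32, Slbp at -1.43, Fen1 at -1.20 and Cdc7 at -1.68. Of the 31 G1 genes 2 were lower (6.45%), Btg2 at -1.20 and Myc at -2.20. Myc measured 50.3, 76.1 and 53.3 CPM in blood and 389, 316 and 119 CPM in spleen. These 6 replication genes were 13.6% of the 44, where 6.87% of all features were called lower, and 1 of the 46 other mitosis genes, Smc4, was called lower, at -1.09. It was at -0.99 and not called without library 3 of intact blood. Without library 3 of intact blood, 20 of the 44 and 25 of the 46 were called lower, or 45.5% and 54.3%, against 8.6% of features. The medians stayed near, at -1.08 and -0.98 for the 44 and at -1.59 and -1.49 for the 46, with and without that library.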

How the data were processed

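RNA-seq was done on CD115-positive cells from spleen and blood, 3 libraries in each of 4 groups, each pooling 5 mice. The authors deposited 1 table of expected or estimated counts per library, not scaled to depth or length, with 67088 entries. The submitters' processing notes name STAR and GRCm39, and the counting tool and annotation are not given in the sources used here. Library kit labels say strand-specific, and whether counting used strand is not given. Unassigned entries (1.75% to 4.33% of counts) were left out. Accessions were matched to symbols by the RefSeq table of GRCm38.p6 (25340 of 40274), counts were summed per gene and rounded, which added accession rows to Cenpa, Cdc6 and Tyms, so those depend on how the counting split transcripts.

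Features passing filterByExpr (20135) were fitted with edgeR 4.0.16 (TMM, robust quasi-likelihood, R 4.3.3) over 12 libraries and 4 groups, with Benjamini-Hochberg adjustment over all features. SE is the log2 fold change divided by the root of F. Libraries of a group are separate pools by their labels, and none agreed within sampling noise. The script was tested on simulated data. DESeq2 1.42.0, other scalings and filters, and leaving out each library were alternatives. The members and all lists were chosen with earlier results of these data known. By rule, all 48 members are named, and fold changes are given for those called and for 16 index members, and of the other lists for called genes with the smallest p. A marker gene of the erythroid list is not reported here.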

Additional observations from a re-analysis of the deposited data

How the results depend on the processing

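The count of members called varied with the processing. DESeq2 called 3 members for LR in blood, 3 for LR in spleen, 3 for intact blood against spleen, 8 for blood against spleen after LR and 6 for the difference of effects. Without adjustment the counts were 7 lower, 5 higher, 3 higher, 15 lower and 36 lower. Of all 20135 features, 3831, 2308, 2354, 3938 and 1925 met the same limit in the same directions. With only the groups compared, 26 were called for blood against spleen after LR and 1 for LR in spleen, against 23 there without library 3 of intact blood, and the cause was not tested. RLE factors, no filter, at least 10 counts in every library, rows as deposited and haemoglobin left out kept these counts within 1.5 times.

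Leaving out 1 library at a time moved the counts from 0 to 2 for LR in blood, 0 to 23 for LR in spleen and 1 to 35 for blood against spleen after LR, and left 0 for intact animals and for the difference. In the same fits, 992 to 1637 of all features were called higher and 635 to 1232 lower for LR in blood. For LR in spleen 1 to 626 were called higher, and for blood against spleen after LR 601 to 1811 were called lower. In LR in blood, Ndc80 was called lower without library 1 and Cenpf lower without library 2 of intact blood. The medians ranged over -1.57 to 0.52 (replication) and -2.15 to 0.82 (mitosis) for LR in blood and over -0.67 to 1.32 and -1.04 to 1.87 for intact animals. For LR in spleen they ranged over 0.96 to 1.52 and 1.27 to 1.98, and for blood against spleen after LR over -1.58 to -0.91 and -2.0 to -1.25, with no change of sign.

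Single members that changed sign in LR in blood ranged, on the log2 scale, over -1.34 to 0.11 for Mcm2, -1.11 to 0.59 for Mcm5, -2.75 to 0.80 for Cdc6, -0.0075 to 0.27 for Cdt1, -0.79 to 0.26 for Pcna, -1.97 to 1.35 for Rrm2, -1.77 to 0.45 for Ccne2, -0.66 to 0.52 for E2f1, -1.40 to 1.55 for Cdk1, -2.35 to 1.03 for Ccna2, -2.01 to 1.65 for Ccnb1, -2.24 to 0.72 for Plk1, -1.76 to 0.47 for Aurkb, -0.98 to 2.03 for Mki67 and -3.10 to 0.68 for Top2a. In intact animals the ranges were -0.26 to 1.18 for Mcm2, -0.86 to 0.83 for Mcm5, -1.93 to 1.73 for Cdc6, -0.15 to 0.16 for Cdt1, -0.13 to 0.93 for Pcna, -1.75 to 1.64 for Rrm2, -0.82 to 1.39 for Ccne2, -0.18 to 0.98 for E2f1, -1.24 to 1.71 for Cdk1, -1.39 to 2.02 for Ccna2, -1.62 to 2.03 for Ccnb1, -1.20 to 1.75 for Plk1, -0.47 to 1.75 for Aurkb, -1.33 to 1.74 for Mki67, -0.72 to 3.04 for Top2a and -1.08 to 0.24 for Ccne1. These changes came from leaving out library 3 of intact blood, except for Cdt1, which is near 0 in both, and Ccne1. With haemoglobin left out Cdt1 was at 0.041 in intact animals.

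Replicate numbers were not treated as pairs in the main fit. Same-numbered libraries correlated between -0.05 and 0.19 in their deviations, and not every library correlated best with its own number. After LR, each spleen library did correlate best with the blood library of its own number, at 0.042, 0.131 and 0.189. Such correlations cannot decide whether the numbers mark shared animals, and no label says so. A fit with the replicate number as a block called 0, 1, 0, 2 and 0 members in the 5 comparisons, as without it. The block moved Mki67 for LR in blood to 0.22. RLE in place of TMM moved the median of all features for blood against spleen after LR from -0.14 to -0.03.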

Other observations

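Ube2c and Nusap1 also differed between the libraries of blood. Leaving library 3 of intact blood aside, Ube2c was at 28.7 and 16.1 CPM in intact blood and 30.6, 64.3 and 21.6 CPM after LR, and Nusap1 at 11.2 and 6.83 CPM and 11.8, 20.5 and 9.88 CPM. Alas2, the enzyme of haem synthesis in red cell precursors, was at 7831 and 5452 CPM and 7635, 11535 and 4324 CPM in the same libraries, and haemoglobin genes at 33.1% and 25.6% and at 29.4%, 34.2% and 16.6% of counts. Library 2 after LR was the highest of these 5 in all 4 measures. Other genes of the erythroid list did not all have this order. Slc4a1, Ermap, Rhag and Rhd were also highest there. Gata1 and Epor were highest in library 1 of intact blood, at 5.17 and 0.688 CPM against 4.62 and 0.102 CPM in library 2 after LR. Klf1 was highest in library 1 after LR, at 0.763 against 0.442 CPM. In Mki67 the highest of the 5 was library 3 after LR, at 234 CPM, which also had the highest sum of neutrophil genes at 19982 CPM. The part of these cells in the levels of Ube2c, Nusap1 and Mki67 was not tested.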
